A study of Mus musculus with 12 samples.

Results

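The response of ET cells to TCDD after 4 h was measured on 4 of the 12 arrays of a time course. TCDD is a persistent dioxin, and ET is a mouse cell line whose labels describe it as fetal cortical epithelium of the thymus. The 4 arrays were chosen by their titles: 2 arrays of cells given TCDD at 5 nM for 4 h, and 2 arrays of cells given the solvent for 4 h, which was 1,4-dioxane at 0.05% by volume. All cells were at 80 to 90% confluence in DMEM with 10% fetal calf serum, and the labels name no added allele. The arrays of a group were called biological duplicates, but the labels leave the repeated step unstated. The p-values therefore measure only how far arrays spread within the 6 groups of the whole series, which may be technical. The labels of the second TCDD array contradict each other, since its treatment field names the solvent while its title, description and protocol name TCDD. Cyp1a1, the usual reporter of TCDD exposure, was at log2 10.2 on that array, against 4.3 and 4.0 on the solvent arrays. The titles set the groups. All values are log2 levels per Affymetrix probe set, in which a difference of 1 is 2-fold.

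The aryl hydrocarbon receptor (AhR) is a ligand-activated transcription factor that waits in the cytoplasm with the chaperone HSP90. After binding a ligand such as TCDD it enters the nucleus, pairs with ARNT and binds DNA at the xenobiotic response element, whose core is GCGTG. Its best known targets encode enzymes that oxidise or conjugate foreign compounds, and in the thymus of rodents TCDD is known for shrinking the organ.

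To show what that core looks like near the genes the results turn on, the 250 bases upstream of the annotated start are given for 5 of them, read 5′ to 3′ on the strand of the gene from RefSeq (GRCm38.p6), with every GCGTG, or CACGC where the core lies on the other strand, in capitals. The first 2 are the genes that passed the test, Tiparp and Nqo1 are AhR targets on the arrays, and Rgs4 led the genes with lower levels. They lie at chr9:57697363-57697612 (+) for Cyp1a1, chr16:58669958-58670207 (+) for Cpox, chr3:65528197-65528446 (+) for Tiparp, chr8:107403206-107403455 (-) for Nqo1 and chr1:169747643-169747892 (-) for Rgs4.
Cyp1a1: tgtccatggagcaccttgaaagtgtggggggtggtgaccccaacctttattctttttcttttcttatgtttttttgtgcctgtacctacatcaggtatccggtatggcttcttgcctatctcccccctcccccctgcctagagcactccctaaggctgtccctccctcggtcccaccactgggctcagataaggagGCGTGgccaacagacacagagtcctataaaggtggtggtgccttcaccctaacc
Cpox: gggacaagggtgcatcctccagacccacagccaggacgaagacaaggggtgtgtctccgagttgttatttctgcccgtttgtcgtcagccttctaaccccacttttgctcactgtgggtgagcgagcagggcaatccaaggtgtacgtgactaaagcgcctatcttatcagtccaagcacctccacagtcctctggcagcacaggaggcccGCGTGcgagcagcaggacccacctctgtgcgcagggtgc
Tiparp: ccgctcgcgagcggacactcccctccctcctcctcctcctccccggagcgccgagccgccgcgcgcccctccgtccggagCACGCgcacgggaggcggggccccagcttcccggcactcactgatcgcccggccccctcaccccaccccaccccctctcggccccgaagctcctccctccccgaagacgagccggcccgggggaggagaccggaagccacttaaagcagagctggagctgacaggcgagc
Nqo1: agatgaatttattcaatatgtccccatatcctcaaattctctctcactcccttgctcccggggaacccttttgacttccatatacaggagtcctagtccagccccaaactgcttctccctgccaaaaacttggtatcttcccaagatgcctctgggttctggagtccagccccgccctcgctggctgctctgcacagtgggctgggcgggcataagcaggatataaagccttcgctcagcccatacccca
Rgs4: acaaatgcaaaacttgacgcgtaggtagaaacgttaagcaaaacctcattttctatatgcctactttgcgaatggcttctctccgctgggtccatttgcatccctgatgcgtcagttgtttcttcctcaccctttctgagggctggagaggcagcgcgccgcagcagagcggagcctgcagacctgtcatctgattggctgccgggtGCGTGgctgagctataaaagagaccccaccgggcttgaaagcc
The core begins at position -54 from the start in Cyp1a1, -39 in Cpox, -170 in Tiparp and -43 in Rgs4, and these letters are not in the window of Nqo1. Of all 32851 RefSeq mouse promoters in the table, 28.2% hold the core on either strand within the same 250 bases. The longer form TNGCGTG, with N any base, is in none of the windows shown and in 4.1% of all promoters. A match is a description of the letters and not evidence of binding.

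Across the series the second TCDD array resembled the solvent arrays of its time more closely than the first did. Over the 15762 tested probe sets, Pearson's r with the 4 h solvent arrays was 0.959 and 0.961 for the first TCDD array, and 0.984 and 0.987 for the second, while the solvent arrays reached 0.994 with each other. Differences between the TCDD arrays had an SD of 0.663 in log2, against 0.200 between the solvent arrays. Cut into 4 clusters, the 12 arrays gave 1 cluster of 7, which held the other 3 arrays of this time, the first TCDD array on its own, and 2 clusters of 2. The 5 arrays outside the large cluster are pooled below as an array set, although the first TCDD array did not cluster with the other 4. Metallothionein Mt1 was at 9.6 to 10.8 on these 5 arrays and at 7.1 to 7.4 on the other 7. The excess of 3′ over 5′ control signal for actin was 0.5 and 0.7 on the TCDD arrays and 0.8 on both solvent arrays. The 24 control probe sets for the dap, lys, phe and thr spike-in transcripts were all lower on both TCDD arrays than on both solvent arrays, with mean differences of -1.15 to -0.70 and medians of -1.25 on the first TCDD array and -0.63 on the second. The part of these control signals in the results was not tested. For this reason each TCDD array is given separately against the solvent mean, and both differences share the same solvent arrays.

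The cell type given by the labels was checked against markers. Of 16 cortical thymic epithelial markers, 14 were on the array and 8 passed the filter of a mean of 4 or more over all arrays. Prss16, a protease of cortical thymic epithelium, averaged 3.98, Krt18 3.96, Epcam 3.55 and Ly75 3.47, all under the filter. Others of the list were well above it, with Cxcl12 at 12.3, Ctsl at 11.4, Kitl at 7.56 and Ccl25 at 5.90, while Krt8 at 5.04 and Foxn1, the master regulator of the lineage, at 4.36 were nearer to it. All 15 fibroblast and mesenchyme markers on the array passed it. The level percentile among all probe sets had a median of 39.9 for the cortical markers and 85.7 for the fibroblast markers, which compares different probe sets only roughly. Markers of other cell types on the array passed the filter as well: 5 of 10 medullary, 5 of 9 lymphocyte and 4 of 8 macrophage and dendritic. The median percentiles of these lists were 31.0, 33.2 and 32.2. Passing the filter therefore does not tell the cell types apart. Some markers of the labelled cell type were above the filter and others were not, and the cells are called ET cells below.

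TCDD raised 2 probe sets at 4 h and lowered none past the test (0.0127% of 15762; limma, Benjamini-Hochberg adjusted p under 0.05). Cyp1a1, the monooxygenase that defines the AhR response, was at 11.1 and 10.2 on the TCDD arrays, against 4.3 and 4.0 on the solvent arrays. It rose by 6.50 ± 0.45 in log2 (SE, n = 2 arrays each; limma adjusted p = 0.000954), or 90.5-fold, and separately it stood 124-fold over the solvent mean on the first TCDD array and 66.3-fold on the second. Cpox, coproporphyrinogen oxidase of haem synthesis, was at 7.8 and 8.4 with TCDD by one probe set, against 5.6 on both solvent arrays. This probe set rose by 2.50 ± 0.27, or 5.66-fold (limma adjusted p = 0.0332). The other Cpox probe set was at 8.2 and 8.7 with TCDD and at 7.0 and 6.9 in solvent, a difference of 1.50 ± 0.24 (limma adjusted p = 0.223). When arrays of 1 time and number were blocked together as pairs, 1 probe set passed, Cyp1a1, and the limma adjusted p of Cpox was 0.140. Using the 4 h arrays alone, 0 passed, with limma adjusted p = 0.979 for both genes. At an unadjusted p under 0.05 the limma fit gave 341 probe sets, 198 higher (1.26%) and 143 lower (0.907%).

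The known AhR targets were the list that stood farthest from solvent. Of 20 targets listed, 16 were on the array and 11 were tested. One of them, Cyp1a1, passed, and 8 of the 11 lay on both TCDD arrays above both solvent arrays, against 7.93% of all tested probe sets, while 0 lay below, against 11.2%. Their median difference was 1.20, with 0.85 on the first TCDD array and 1.50 on the second, beside 0, 0.05 and -0.05 over all tested probe sets. Tiparp, a mono-ADP-ribosyltransferase that limits AhR signalling, was the gene with the largest spread between the arrays among these targets. Its probe set of highest level was at 6.8 and 8.5 with TCDD and at 4.9 and 4.8 in solvent, a difference of 2.80 ± 0.56 (limma adjusted p = 0.760). Another was at 5.1 and 7.4 with TCDD, against 3.5 and 3.2 in solvent, and the third at 4.7 and 7.0 with TCDD, against 3.8 in both solvent arrays. Every tested Tiparp probe set thus lay above solvent on both TCDD arrays, and higher on the second than on the first. Those at 3.5 and 3.2 and at 3.8 in solvent were there under the filter of 4. They passed it through higher levels on other arrays, among them those with TCDD, so the filter in part fixed that they lay above solvent.

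Phase I and phase II enzymes followed with smaller differences. Cyp1b1, a monooxygenase related to Cyp1a1, was at 10.5 and 12 with TCDD and at 10.1 and 10.0 in solvent by its brighter probe set, and at 8.7 and 9.9 with TCDD against 7.8 in both solvent arrays by the other (1.50 ± 0.40, limma adjusted p = 0.973). Aldh3a1, an aldehyde dehydrogenase, was at 10.1 and 10.2 with TCDD, against 8.2 and 8.3 in solvent. It differed by 1.90 ± 0.31 (limma adjusted p = 0.223), with little spread in either group. Nqo1, a quinone reductase that AhR and NRF2 both induce, was at 8.8 and 9.2 with TCDD, against 7.6 and 7.8 in solvent (1.30 ± 0.19, limma adjusted p = 0.174). Nfe2l2, which encodes NRF2, was at 7.0 and 7.7 with TCDD and at 6.2 and 6.1 in solvent. Xdh, xanthine dehydrogenase, was at 8.6 and 9.1 with TCDD and at 8.3 and 8.4 in solvent. The groups overlapped or touched for Cyp2s1 (5.0 and 4.7 with TCDD, 4.9 and 4.7 in solvent), Fmo2 (6.5 and 6.1 with TCDD, 6.3 and 6.2 in solvent) and Slc7a5 (8.9 and 8.6 with TCDD, 8.8 in both solvent arrays). Cyp1a2, the AhR repressor Ahrr, Gsta2, Selenbp1 and Ido1 were on the array with means of 3.33 to 3.70, under the filter, and were not tested.

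No enzyme of haem synthesis other than Cpox passed the test. Of the 8 tested genes of the list, by the probe set of highest level, 2 lay on both TCDD arrays above solvent, Cpox and Ppox, and 1 below, Uros. Over all tested probe sets the shares were 7.93% and 11.2%, and counts in so short a list were not tested against them. Alas1, the rate-limiting step outside the erythroid lineage, was at 7.7 and 7.5 with TCDD and at 7.6 in both solvent arrays. Ppox, the enzyme after Cpox, was at 5.8 and 5.7 with TCDD and at 5.5 and 5.4 in solvent. Uros was at 5.9 on both TCDD arrays and at 6.2 on both solvent arrays. Fech, which inserts the iron, was at 7.3 and 7.8 with TCDD, against 7.9 and 7.6 in solvent.

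Of 11 tested genes for the receptor and its partners 0 passed, and 0 lay above or below solvent on both TCDD arrays, beside 7.93% above and 11.2% below over all tested probe sets, which for 11 genes is near the background. Ahr itself was at 4.8 and 7.6 with TCDD, against 7.3 on both solvent arrays, so the first TCDD array was far below solvent and the second slightly above it. A further Ahr probe set, at 4.3 and 4.2 with TCDD and at 4.2 in solvent, was near the filter. Arnt was at 4.7 and 4.5 with TCDD and at 4.3 and 4.7 in solvent. Hsp90aa1, an isoform of the chaperone, was at 9.2 and 11.0 with TCDD, against 10.2 on both solvent arrays. Nrip1, a corepressor, was at 4.6 and 6.4 with TCDD and at 5.8 and 6.1 in solvent.

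**Figure D1:**
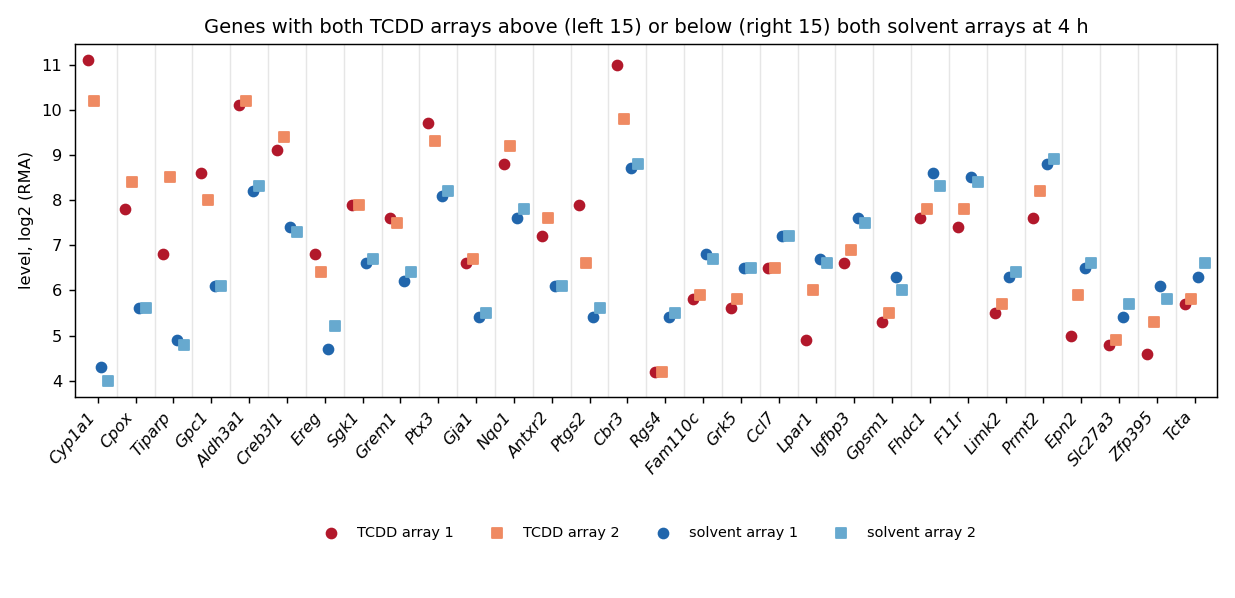
Log2 level on each 4 h array for the 15 genes (left) that stood farthest above and the 15 (right) farthest below solvent on both TCDD arrays, ordered by the difference that was nearer 0. Points are arrays, TCDD in red tones and solvent in blue. Cyp1a1 and Cpox passed the test, and Rgs4 is the first gene on the lower side.

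Over the whole array, 1250 probe sets lay above and 1764 below both solvent arrays on both TCDD arrays (7.93% and 11.2%). At least 1 above the solvent mean on each TCDD array stood 21 of the higher probe sets, of 18 named genes, and on the lower side there was 1, Rgs4. The 15 genes named for each side were chosen by these same differences, so the values that follow describe them. The log2 differences of the 15 higher genes ran from 1.20 to 6.50, and of the 15 lower ones from -1.25 to -0.70. Besides Cyp1a1 and one Cpox probe set, none passed the test.

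Among the higher genes outside the target list, Gpc1, a heparan sulphate proteoglycan of the cell surface, was at 8.6 and 8.0 with TCDD, against 6.1 on both solvent arrays. It differed by 2.20 ± 0.33 (limma adjusted p = 0.174). Creb3l1, which encodes a factor released from the endoplasmic reticulum to act in the nucleus, was at 9.1 and 9.4 with TCDD, against 7.4 and 7.3 in solvent. With 1.90 ± 0.24 it came nearest to the threshold (limma adjusted p = 0.0714). Antxr2, an anthrax toxin receptor that binds matrix, was at 7.2 and 7.6 with TCDD, against 6.1 on both solvent arrays (1.30 ± 0.24, limma adjusted p = 0.452). Ptx3, a secreted pattern recognition protein, was at 9.7 and 9.3 with TCDD, against 8.1 and 8.2 in solvent (1.35 ± 0.28, limma adjusted p = 0.847). Gja1, the gap junction protein connexin 43, was at 6.6 and 6.7 with TCDD, against 5.4 and 5.5 in solvent, and all 6 of its probe sets had positive differences, of 0.35 to 1.20. Grem1, a secreted BMP antagonist, was at 7.6 and 7.5 with TCDD, against 6.2 and 6.4 in solvent. Sgk1, a kinase that glucocorticoids and serum induce, was at 7.9 on both TCDD arrays, against 6.6 and 6.7 in solvent. It differed by 1.25 ± 0.56 (limma adjusted p = 0.973). Solvent levels of Sgk1 at other times were 7.2 and 9.2 at 2 h and 7.3 and 8.2 at 6 h, in part above its 4 h level with TCDD. Those of Gja1 were 5.5 and 6.2 at 2 h and 6.3 and 7.0 at 6 h, and its TCDD difference at 6 h was 0.10.

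Some of the higher genes had large standard errors or TCDD arrays far apart. Ptgs2, the inducible prostaglandin synthase, was at 7.9 and 6.6 with TCDD, against 5.4 and 5.6 in solvent, with a standard error of 1.25 on a difference of 1.75. Cbr3, a carbonyl reductase, was at 11.0 and 9.8 with TCDD, against 8.7 and 8.8 in solvent. Ereg, a ligand of the EGF receptor and one of the 11 targets above, was at 6.8 and 6.4 with TCDD, against 4.7 and 5.2 in solvent. Its standard error was 1.10 on a difference of 1.65, and it did not pass the test. These standard errors take their spread from the arrays of all times. At 2 h Ereg was at 6.9 and 9.6 with TCDD and at 4.9 and 8.5 in solvent. Ptgs2 was then at 7.2 and 10.2 with TCDD and at 5.6 and 9.6 in solvent.

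On the lower side, Rgs4, which speeds the turn-off of G proteins, was at 4.2 on both TCDD arrays, against 5.4 and 5.5 in solvent. It differed by -1.25 ± 0.19 (limma adjusted p = 0.174), its level with TCDD lay just above the filter, and its other probe set, at 4.9 on both TCDD arrays and 5.1 and 5.2 in solvent, differed by -0.25 ± 0.22. With the solvent arrays of all times as 1 group, the Rgs4 probe set with the larger difference passed, at -1.20 (limma adjusted p = 0.0339). Ccl7, a monocyte chemokine, was at 6.5 on both TCDD arrays, against 7.2 on both solvent arrays. Igfbp3, which binds insulin-like growth factors, was at 6.6 and 6.9 with TCDD, against 7.6 and 7.5 in solvent. Lpar1, a lysophosphatidic acid receptor, was at 4.9 and 6.0 with TCDD, against 6.7 and 6.6 in solvent. Grk5, a kinase that desensitises G protein-coupled receptors, was at 5.6 and 5.8 with TCDD, against 6.5 on both solvent arrays. These differences were of the size of those of the spike-in controls above, whose part in them was not tested. The remaining genes of this side, among them F11r, Limk2, Prmt2 and Epn2, had limma adjusted p-values of 0.973.

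Of the 15 higher genes, 11 had a promoter in the RefSeq table and 6 of these held the core within 250 bases. Of the 15 lower genes, 13 had a promoter and 11 held it. Some of these genes have several promoters, which raises their chance of a match. Counting genes with a single promoter, 5 of 10 higher and 8 of 9 lower genes held the core, beside 28.2% of all promoters. That share covers all RefSeq promoters, whatever the level of their gene, and is not matched to these genes. The longer form TNGCGTG was held by 1 of the higher and 0 of the lower genes. No test was made of these counts.

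**Figure D2:**
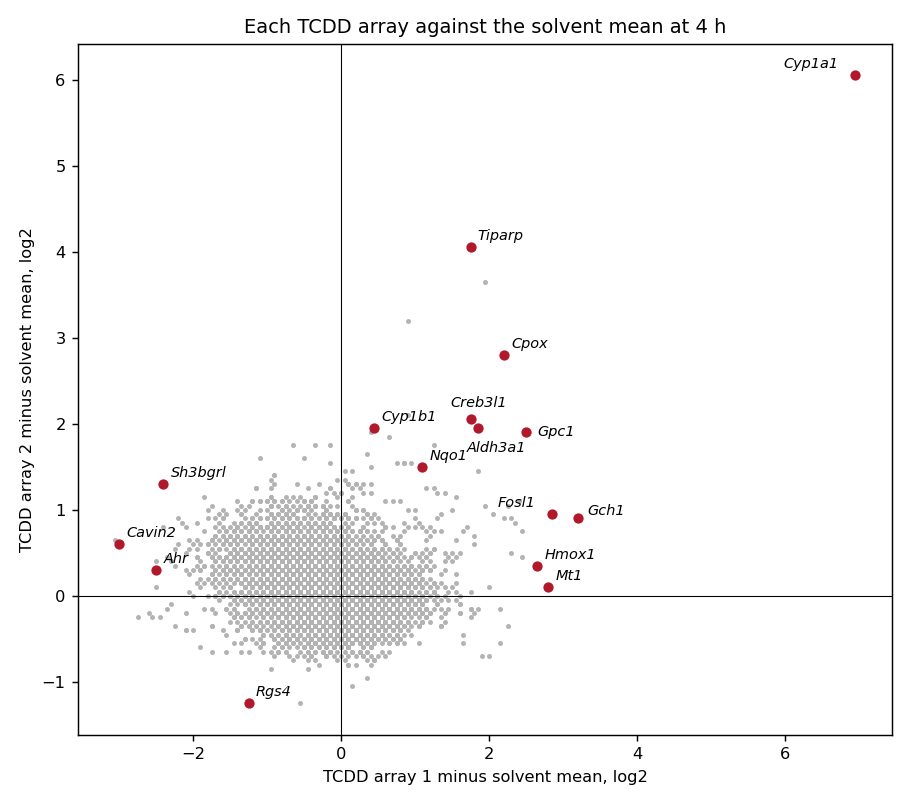
Each tested probe set by its log2 difference from the solvent mean on the first (x axis) and on the second (y axis) TCDD array at 4 h, with named genes in red. Both axes share the same solvent mean, so the cloud is tied together by construction. Cyp1a1, at 6.95 and 6.05, stands alone, while Ahr, Cavin2 and Sh3bgrl lie far to the left and Mt1 and Hmox1 far to the right with little height.

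The TCDD arrays differed from each other more widely than the solvent arrays did. The first stood at least 1 above the solvent mean for 250 probe sets (1.59%) and at least 1 below it for 832 (5.28%), whereas the second did so for 155 (0.983%) and 3 (0.019%). The first exceeded the second by at least 1 for 345 probe sets and fell short of it by as much for 1707, while the solvent arrays differed by as much in 9. These counts describe 1 array each and have no replicate check. At 4 h only the first TCDD array lies in the array set described above, and the part of that set in these counts was not tested. Genes low on this array were not all low on the other arrays of the set. On the solvent arrays outside and inside it, Sh3bgrl was at 5.7 and 6.5 at 2 h, and Cavin2 at 7.6 and 5.1 at 6 h.

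Of the genes with the largest excess on the first TCDD array, 10 were named. Mt1 was at 10.1 and 7.4 on the first and second TCDD arrays, against 7.2 and 7.4 in solvent, and Mt2, also a metallothionein, at 8.9 and 6.6, against 6.8 and 6.7. Hmox1, the inducible haem oxygenase, was at 10.1 and 7.8, against 7.5 and 7.4 in solvent. Ccn2, a matricellular target of TGF-beta and YAP, was at 11.2 and 8.6, against 9.3 on both solvent arrays. In each of these the second TCDD array stood within 0.70 of the solvent mean. Gch1, which starts tetrahydrobiopterin synthesis, was at 8.4 and 6.1 with TCDD, against 5.0 and 5.4 in solvent, so here both TCDD arrays were above. Aen, a p53-responsive exonuclease, was at 7.2 and 4.6 with TCDD, against 4.8 and 5.1 in solvent.

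On the other side, 10 genes were named for the largest deficit on the first TCDD array. Dcn, the proteoglycan decorin, was at 8.4 and 11.4 with TCDD, against 10.6 and 10.5 in solvent, and Ogn, of the same proteoglycan family, at 6.5 and 9.3, against 8.7 and 8.8. Bub1, a kinase of the spindle checkpoint, was at 3.5 and 6.6 with TCDD, against 5.7 on both solvent arrays. Cavin2, a coat protein of caveolae, was at 4.0 and 7.6 with TCDD, against 7.0 on both solvent arrays. Sh3bgrl was at 3.6 and 7.3 with TCDD, against 5.8 and 6.2 in solvent, and Ogt, the enzyme that adds N-acetylglucosamine to nuclear and cytoplasmic proteins, at 3.5 and 6.7, against 5.7 and 6.1. In all 10 genes named on this side the first TCDD array lay 1.85 to 3.00 below the solvent mean and the second 0.30 to 1.30 above it.

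**Figure D3:**
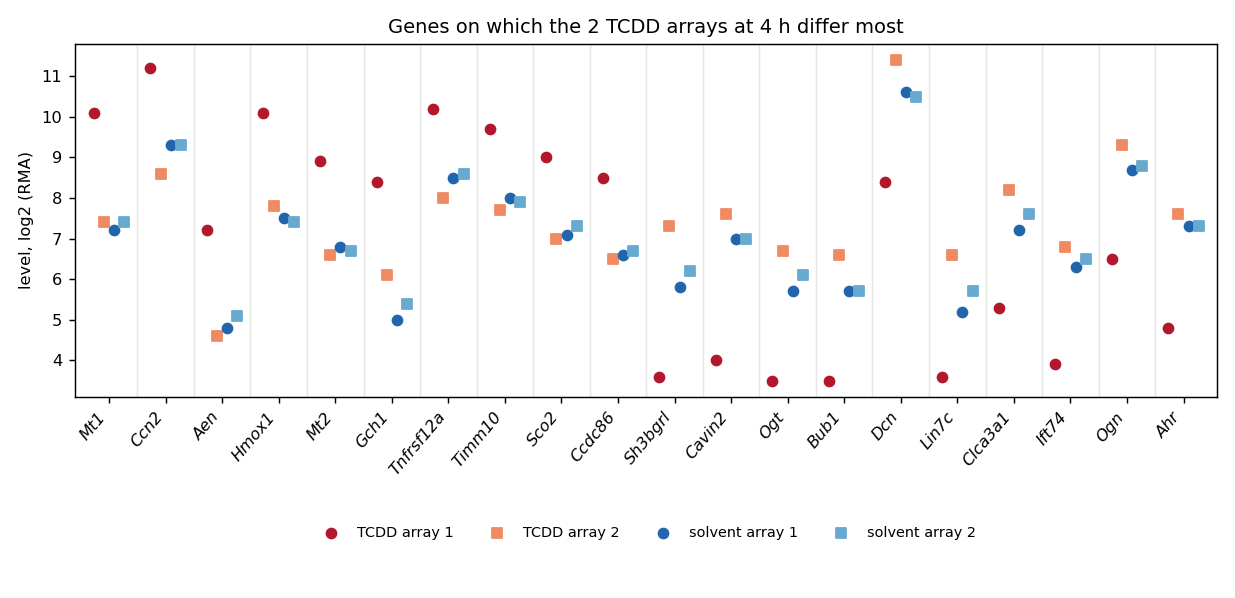
Log2 level on each 4 h array for the 10 genes with the largest excess (left) and the 10 with the largest deficit (right) of the first TCDD array against the second. Points are arrays, TCDD in red tones and solvent in blue. The second TCDD array sits near or above the solvent arrays for all 10 genes on the right, and within 0.90 of the solvent mean for the 10 on the left.

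Which other genes passed depended on which TCDD array was used. With the second TCDD array left out, 49 probe sets passed, 5 higher and 44 lower (limma, lone array assumed to vary like the other groups). The 44 stood for 39 named genes, among them Nuf2, Cenpq, Bub1, Top2a, Clk1 and Itgb1, which were chosen after their values were seen, and on the omitted array 40 of the 44 stood at or above the solvent mean. With the first TCDD array left out, 3 probe sets passed, all higher. They belonged to Cyp1a1, Cpox and Tiparp, whose probe set then differed by 4.05 (limma adjusted p = 0.00478). That Tiparp probe set was at 3.5 and 3.2 in solvent, so it passed the filter of 4 only through its levels with TCDD. With the array set as a block as well, a combination chosen after the data were seen, 13 passed, all higher, among them probe sets of Cyp1b1, Aldh3a1, Gpc1, Nqo1 and Jak1.

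Gene lists for pathways near the AhR were described by counts and medians, with the share of all tested probe sets being 7.93% above and 11.2% below. Besides Cyp1a1, no member of these 22 lists passed by its highest-level probe set. The NRF2 antioxidant list had 9 of 18 tested genes above solvent on both TCDD arrays and 0 below, with a median of 0.70 on the first TCDD array and 0.15 on the second. Gclm, of glutathione synthesis, was at 9.0 and 8.3 with TCDD, against 7.7 and 8.0 in solvent. Gstm1, a glutathione transferase, was at 10.1 and 9.4 with TCDD, against 8.8 and 8.9 in solvent, and Txnrd1, thioredoxin reductase, at 10.8 and 10.3, against 9.9 and 10.0. Both TCDD arrays were higher here, and the first more so than the second.

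Immediate early and AP-1 genes had 8 of 25 above and 3 below, with medians of 0.45 on the first TCDD array and -0.10 on the second. Fosl1, an AP-1 subunit, was at 9.6 and 8.1 with TCDD, against 7.3 and 7.2 in solvent. Maff, a small Maf partner of NRF2, was at 8.7 and 7.8 with TCDD, against 6.7 and 6.8 in solvent, and Ier3 at 11.2 and 10.1, against 9.1 and 9.2. These genes were also higher in solvent on arrays of the array set. On the 2 h solvent arrays outside and inside it, Fosl1 was at 7.6 and 9.0, Maff at 7.1 and 8.1, and Ier3 at 9.2 and 11.3. At 4 h only the first TCDD array lies in that set, whose part in these counts and medians was not tested. Heat shock proteins had 4 of 14 above and 0 below.

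The TGF-beta and BMP list leaned the other way, with 3 of 22 above, 7 below and a median of -0.15. Tgfb3, a ligand of the family, was at 6.0 and 6.8 with TCDD, against 7.4 and 7.3 in solvent. Bmp4, also a ligand, was at 6.4 and 8.6 with TCDD, against 8.9 and 8.8 in solvent, so its standard error of 0.73 was large beside a difference of -1.35. Chemokines and stromal cytokines had 4 of 19 above and 5 below. Tslp, an epithelial cytokine that acts on dendritic cells, was at 5.3 and 6.0 with TCDD, against 4.2 and 4.7 in solvent.

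Cell cycle genes had 0 of 28 above and 5 below, and p53 targets and kinase inhibitors 1 of 18 above and 3 below. The p53 target Cdkn1a, an inhibitor of cyclin-dependent kinases, was at 8.3 and 6.6 with TCDD, against 5.8 and 5.9 in solvent, by its brighter probe set. Extracellular matrix genes had 4 of 28 above and 4 below. Fibroblast markers had 2 of 15 above and 4 below, with a median of -0.40 on the first TCDD array and 0 on the second. Their summed level on the linear scale was 23867 and 30044 on the TCDD arrays, against 30238 and 29238 on the solvent arrays, so only the first TCDD array stood apart. That sum moves with the matrix genes lower on that array, and its part in them was not tested. In such bulk RNA, fewer cells of a type and less RNA per cell cannot be told apart.

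**Figure D4:**
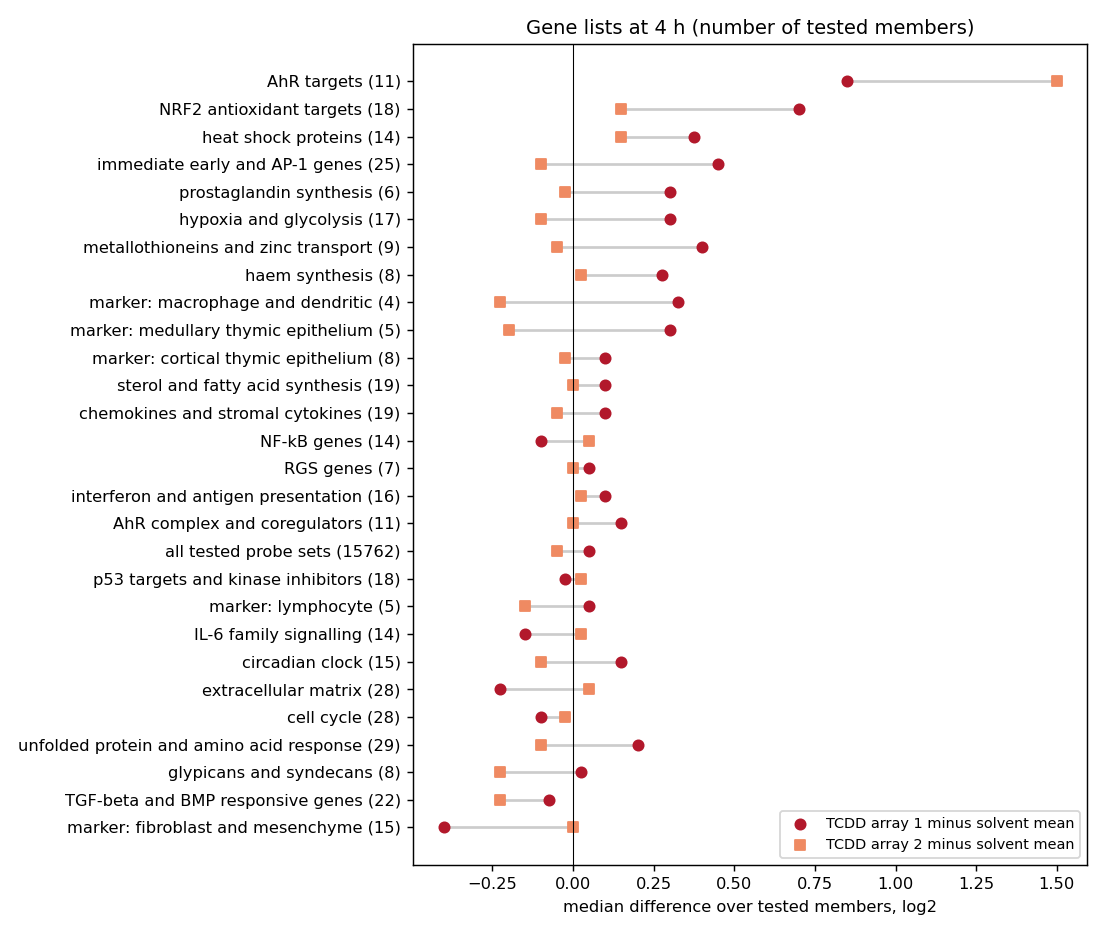
Median log2 difference from the solvent mean over the tested members of each list, for the first TCDD array (circles) and the second (squares), with the number of tested members in brackets. The AhR targets stand at 0.85 and 1.50, all tested probe sets at 0.05 and -0.05, and no other list has a median above 0.15 on the second TCDD array.

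The 4 h effects were set beside those at 2 h and 6 h, each from its own arrays. Both 6 h solvent arrays are labelled 6 h by their titles but 4 h by their protocols, and here too the titles were followed. No probe set had an effect at 4 h that passed as different from 2 h or from 6 h (limma, 0 of 15762 each, 0%, with 108 and 98 at an unadjusted p under 0.05). Cyp1a1 differed by 5.60 at 2 h, 6.50 at 4 h and 5.40 at 6 h, and the Cpox probe set that passed by 2.30, 2.50 and 1.95. The other Cpox probe set differed by 2.45, 1.50 and 1.60, with 4 h minus 2 h at -0.95 ± 0.34 (unadjusted p = 0.0201, limma adjusted p = 1), so the probe sets of this gene did not share an order of times. The Tiparp differences of its brightest probe set were 3.75, 2.80 and 3.20, and those of Gpc1 1.30, 2.20 and 2.00. Creb3l1 stood at 0.95, 1.90 and 1.30, Nqo1 at 0.80, 1.30 and 1.55, and Rgs4 at -1.45, -1.25 and -0.90. The effect on Cyp1a1 at 4 h exceeded that at 2 h by 0.90 ± 0.63, and a p that misses the threshold does not show that the times were alike.

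Some transient patterns were in the values without passing. Socs3, a feedback inhibitor of cytokine signalling, differed by 1.95 at 2 h, 0.70 at 4 h and 0.25 at 6 h by its brightest probe set, and another of its probe sets differed between 4 h and 2 h by -1.25 ± 0.35 (unadjusted p = 0.00525, limma adjusted p = 1). Cdkn1a stood at 2.70, 1.60 and 0.40. Fosl1 stood at 1.30, 1.60 and 0.40, and Maff at 1.65, 1.50 and 0.15. The 4 h values are means of TCDD arrays that lay apart. Against the solvent mean, the first and second stood at 1.10 and 0.30 for the brightest Socs3 probe set and 2.45 and 0.75 for Cdkn1a. For Fosl1 they stood at 2.35 and 0.85, and for Maff at 1.95 and 1.05. Mnt, a MYC antagonist, was at 6.8 and 6.6 with TCDD and 6.7 in both solvent arrays at 4 h, after a difference of 1.10 at 2 h. On the 6 h side, the lowest unadjusted p was that of Smim7, at 0.35 at 4 h and -0.60 at 6 h (unadjusted p = 0.000819, limma adjusted p = 0.986).

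**Figure D5:**
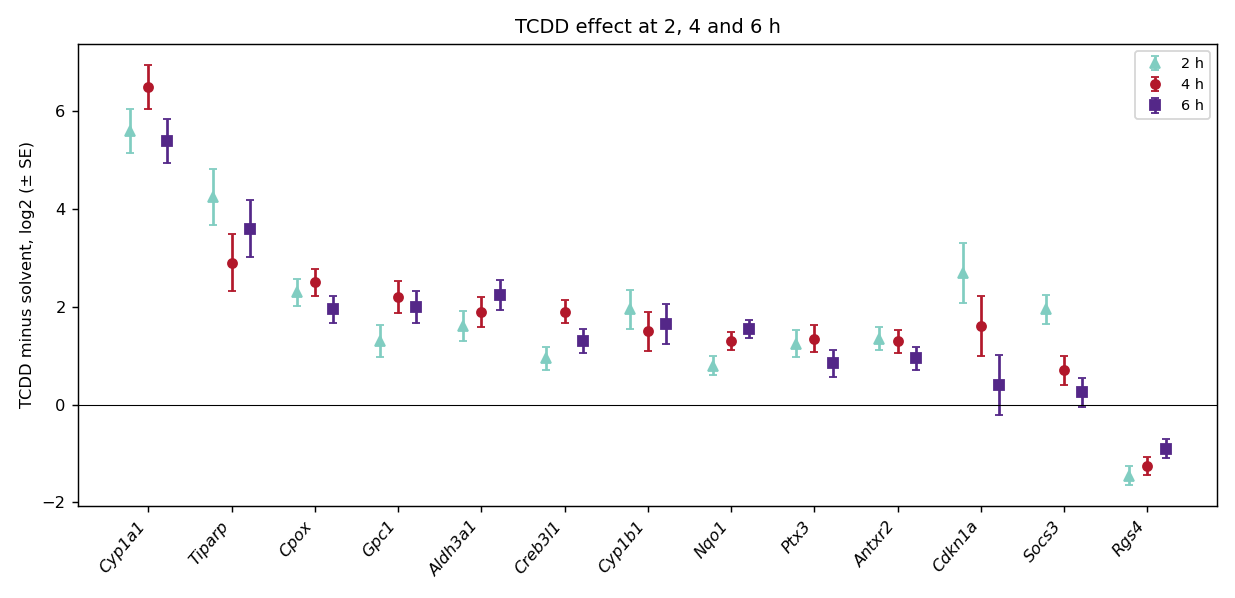
TCDD minus solvent in log2 at 2 h (triangles), 4 h (circles) and 6 h (squares) for 13 genes, with standard errors from the limma fit over all 12 arrays. Tiparp is shown by the probe set with the largest difference at 4 h. Cyp1a1 stands at 5.60, 6.50 and 5.40, Cdkn1a and Socs3 have their highest value at 2 h, and Rgs4 is below 0 at all 3 times.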

How the data were processed

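RNA of 12 cultures was measured on Affymetrix arrays after TRIzol isolation, per the labels' protocols. The deposited table holds log2 values per probe set which the authors made by RMA, a method named without a version in the submitters' processing notes. Other upstream steps are not given in the sources used here. This method gives every array the same distribution (median 5.1, range 2.2 to 14.1), which hides any change common to all genes and compresses differences near background. Values carry 1 decimal. All 12 columns were used and 0 were left out; the number of arrays, 2 per group, limits the precision.

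Of 22690 probe sets, 64 controls were set aside. Of the other 22626, 20380 had 1 gene symbol in the platform annotation, 691 several and 1555 none, and genes were named from the first kind alone. RefSeq (GRCm38.p6) matched 20351 of them by gene identifier and changed 0 symbols. Probe sets with a mean of 4 or more over the 12 arrays were tested: 15762, of which 14495 had 1 symbol, for 9391 genes. limma 3.58.1 in R 4.3.3 fitted a mean for each of the 6 groups (6 residual degrees of freedom, prior 3.80, prior SD 0.218), with two-sided moderated tests and Benjamini-Hochberg adjustment over all tested probe sets at 0.05. Errors are standard errors from this fit. The script's test was also run on simulated data.

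Over probe sets, the difference of replicate 1 and 2 with TCDD correlated with that in solvent at r = 0.366 at 2 h, 0.158 at 4 h and 0.706 at 6 h. Same-numbered arrays thus deviated together most at 6 h and only weakly at 4 h. The replicate number was therefore tried as a block within each time.

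Named were all probe sets past the test, the 15 highest and 15 lowest genes by the difference nearer 0 of the TCDD arrays, the 10 genes each way by the difference between the TCDD arrays, up to 4 members of each of 22 gene lists and 5 marker lists (all members for AhR targets, AhR partners and haem synthesis), and 5 genes for each contrast between times. A list member was taken by its probe set of highest mean. The comparison, its genes and the lists were chosen with earlier results of these data known. Alternatives were the filter, moderation, normalization, array weights, blocks, the solvent arrays used, the mean of a gene's probe sets and leaving out each array.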

Additional observations from a re-analysis of the deposited data

Results flagged for a closer look

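Alas2, the erythroid form of the first enzyme of haem synthesis, was at 4.5 and 4.3 with TCDD at 4 h, against 4.2 and 4.3 in solvent. Both TCDD arrays lay above the solvent mean at 4 h and below it at 2 h and at 6 h, and the difference between times was 0.30 ± 0.27 against each (limma adjusted p = 1 and 0.986). Ppox was at 5.8 and 5.7 with TCDD at 4 h, against 5.5 and 5.4 in solvent, but at 5.1 and 4.8 with TCDD at 6 h, against 5.4 and 5.2 in solvent. The 4 h effect exceeded the 6 h effect by 0.65 ± 0.26 (limma adjusted p = 0.986). The Alas2 differences are small and near the rounding of the deposited table. Those of Ppox are larger than that rounding but did not pass the test.

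Below the filter, Slc14a1, a urea transporter, was at 4.3 and 4.8 with TCDD at 4 h, against 3.0 on both solvent arrays, so the lowest TCDD array stood 1.3 above the highest solvent array. At 2 h it was at 3.8 and 4.0 with TCDD, against 3.4 and 3.5 in solvent, and at 6 h at 4.3 and 5.9 with TCDD, against 3.3 and 3.7 in solvent. The groups did not overlap at any time, and no test was made.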

How the results depend on the processing

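With 2 arrays per group, the 4 h count of 2 moved in many settings. It was 0 with the 4 h arrays alone and 0 with no variance moderation, 1 with array weights, 1 with the replicate block within each time and 1 with the replicate block over all times. The array weights came out equal within each group, at 0.34 for both 4 h TCDD arrays. They therefore could not weigh the first TCDD array differently from the second. It was 7 with the array set as a block, 9 with the solvent arrays of all times as 1 group, 8 with those of 4 h and 6 h, and 13 with the array set as a block without the first 4 h TCDD array, a setting chosen after the data were seen. Leaving out each array in turn gave 1 to 49: 49 without the second 4 h TCDD array, 4 without either 6 h solvent array, and 1 without either 2 h solvent, 4 h solvent or 6 h TCDD array. Cyp1a1 passed in 25 of 27 settings, with limma adjusted p from 2.01e-05 to 0.979, and the Cpox probe set that passed in 16, from 0.000706 to 0.979. The counts of differences from 2 h and from 6 h were 0 in every setting run. Of 92 probe sets of genes named in the text or in the lists described in full, 28 changed direction in at least 1 setting, and none of these had passed the test on all arrays. Leaving out 1 array at a time gave ranges across 0. They were -2.50 to 0.30 for Ahr, -1 to 0.80 for Hsp90aa1, -1.35 to 0.45 for Nrip1, -0.45 to 0.05 for Fech, -2.20 to 0.90 for Bub1, -3 to 0.60 for Cavin2, -1.55 to 0.25 for Cenpq, -2.35 to 0.45 for Clk1, -2.15 to 0.85 for Dcn, -1.25 to 0.15 for Itgb1, -1.90 to 0.20 for Nuf2, -2.25 to 0.55 for Ogn, -2.40 to 0.80 for Ogt, -2.40 to 1.30 for Sh3bgrl and -1.50 to 0.50 for Top2a, where the higher end came from omitting the first 4 h TCDD array. They were -0.35 to 2.25 for Aen, -0.70 to 1.90 for Ccn2, -0.15 to 2.15 for Mt2, -0.10 to 0.20 for Cyp2s1 and Stub1 and -0.15 to 0.25 for Fmo2, where the same held for the lower end. Adding the block for the array set to that omission could not move these ends, since the remaining 4 h arrays all lie in the larger set. The ranges were also -0.10 to 0.30 for Arnt and Ncoa3, -0.20 to 0.10 for Arnt2 and Slc7a5 and -0.35 to 0.15 for Ncoa2. With the array set as a block, Mt1 came to -0.06, Mt2 to -0.55, Ccn2 to -0.43, Cyp2s1 to -0.13, Fmo2 to -0.07 and the dim Ahr probe set to -0.01. With the solvent arrays of all times, Arnt came to -0.0167, Arnt2 to 0.12, Slc7a5 to 0.05, Ccn2 to -0.12 and Mt2 to -0.0667. With those of 4 h and 6 h, Arnt2 came to 0.175 and Slc7a5 to 0.05, and with the mean of a gene's probe sets, Stub1 to -0.025 and Ahr to -0.53. Over a wider set of 181 probe sets, which adds the other genes chosen by the naming rule, 56 changed direction in some setting. The causes were not tested.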
